A study of Sus scrofa with 12 samples.

Results

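The nuclear genes of respiratory complex I were examined in the longissimus dorsi muscle of 12 Iberian pigs, 6 with a high and 6 with a low estimated breeding value for myoglobin content. A gene belonged to the complex when its symbol began with NDUFA, NDUFB, NDUFC, NDUFS or NDUFV followed directly by a digit, or was NDUFAB1, which gave 30 of the 25880 genes of the deposited count tables. The assembly factors, whose symbols begin with NDUFAF, were kept apart. The names of 39 such genes were listed for this work, and 9 of them, NDUFS7, NDUFV3, NDUFA7, NDUFA12, NDUFA1, NDUFA3, NDUFA13, NDUFC1 and NDUFB3, were not analysed here. NDUFA4 and its paralogue NDUFA4L2 entered by their names, although NDUFA4 is nowadays assigned to cytochrome c oxidase. Expression was measured by RNA-seq of total RNA with 1 library per pig, as the number of reads that the program htseq-count assigned to each gene.

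The pigs were castrated males of 1 closed commercial Iberian population, raised on restricted feed and then fattened outdoors on acorns and grass, and they were chosen as extremes of the breeding value without full siblings. High MB pigs had breeding values of 0.159 to 0.206 and Low MB pigs of -0.248 to -0.149. Muscle myoglobin itself was 2.38 to 2.56 mg/g in the former and 1.23 to 1.58 mg/g in the latter. Loin muscle holds fibres together with fat, vessels and connective tissue, and in such a bulk sample a smaller number of cells of a type and less RNA per cell cannot be told apart. Each label names 1 individual, and p-values therefore measure the spread between pigs.

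Complex I is the entry point of the mitochondrial respiratory chain: it takes electrons from NADH, passes them to ubiquinone and pumps protons across the inner membrane. Its core subunits carry out the catalysis, 7 of them encoded in the mitochondrial genome and the others in the nucleus, while a larger number of nuclear accessory subunits stabilise the arm that reaches into the matrix and the arm that lies in the membrane. In skeletal muscle the complex is most abundant in oxidative fibres, which are also the fibres rich in myoglobin, and the comparison asked whether muscles that differ in myoglobin also differ in the transcripts of this complex.

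Complex I transcripts differed little between High and Low MB pigs. None of the 30 genes passed the limits of the test, as was the case for all 13373 genes tested, and none had an unadjusted p-value under 0.05, against 8.46% of all genes. The values of the groups overlapped for every member, and failed to overlap for 0.426% of all genes. Small differences towards the High MB group were found for 26 of the 30, against 46.9% of all genes, with a median log2 fold change (the base 2 logarithm of the High MB level over the Low MB level) of 0.06, but their size depended on single animals: without Low MB pig 6 the count was 16 of 30 and the median 0.00, and without High MB pig 2 they were 29 of 30 and 0.15. What the genes shared was a pattern from pig to pig. Nearly all of them were below their means in Low MB pig 6 and High MB pig 2 and above their means in High MB pig 5, which crosses the groups.

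The gene starts are shown first, to give the sequence context of the members. Whether the motifs described here relate to the pattern from pig to pig was not tested. The window ran from 250 bases before the annotated start of the gene to the first 30 bases of the gene in the RefSeq annotation of the pig genome build Sscrofa11.1, and every member was found in it by its symbol. Motifs of 3 factors known for acting on respiratory chain genes were searched on both strands: GCGCATGCG for NRF1, CCGGAAG for the ETS family to which GABPA belongs, and AAGATGGC for YY1. At least 1 of them was present in 12 of the 30 members (40%), against 12.4% of the 20654 protein-coding gene starts of the annotation. The ETS motif was found in 7 members (23.3%, against 9.58% of all gene starts), the NRF1 motif in 3 (10%, against 1.73%) and the YY1 motif in 3 (10%, against 2%). These shares describe letters in a window and were not tested, and gene starts with a motif were found at both high and low expression levels. The 4 windows below hold either several motifs or motifs of different kinds, with the motif letters in capitals on the strand of the gene and all other bases in lower case, so that a motif of the opposite strand appears as its reverse complement. NDUFS3 (chr2:15036851-15037130, minus strand) held 3 ETS motifs, NDUFS6 (chr16:78999972-79000251, minus strand) and NDUFB4 (chr13:139730463-139730742, minus strand) each held an NRF1 motif that overlaps itself on the opposite strand, and NDUFA9 (chr5:65788674-65788953, minus strand) held an ETS and a YY1 motif.
NDUFS3: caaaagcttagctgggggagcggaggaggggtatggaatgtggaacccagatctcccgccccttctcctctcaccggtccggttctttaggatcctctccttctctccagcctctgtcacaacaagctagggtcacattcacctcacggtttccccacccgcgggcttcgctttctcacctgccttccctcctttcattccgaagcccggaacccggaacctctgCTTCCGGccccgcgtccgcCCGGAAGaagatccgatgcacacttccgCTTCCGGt
NDUFS6: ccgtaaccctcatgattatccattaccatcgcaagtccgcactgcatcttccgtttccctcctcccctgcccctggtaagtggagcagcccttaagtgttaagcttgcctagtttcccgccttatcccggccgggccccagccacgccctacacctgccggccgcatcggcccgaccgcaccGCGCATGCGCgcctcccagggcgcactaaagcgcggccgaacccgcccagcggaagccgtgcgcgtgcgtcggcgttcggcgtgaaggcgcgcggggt
NDUFB4: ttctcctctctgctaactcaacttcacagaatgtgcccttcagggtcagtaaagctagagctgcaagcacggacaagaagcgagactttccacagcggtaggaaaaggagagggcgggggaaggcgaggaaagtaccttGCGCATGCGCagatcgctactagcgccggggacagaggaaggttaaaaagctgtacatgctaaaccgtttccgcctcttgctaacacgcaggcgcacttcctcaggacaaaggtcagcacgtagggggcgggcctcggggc
NDUFA9: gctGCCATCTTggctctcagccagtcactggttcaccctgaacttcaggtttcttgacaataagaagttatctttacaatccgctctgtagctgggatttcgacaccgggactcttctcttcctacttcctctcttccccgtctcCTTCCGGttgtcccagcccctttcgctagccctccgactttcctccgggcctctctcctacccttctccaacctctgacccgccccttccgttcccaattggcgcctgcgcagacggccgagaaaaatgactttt

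The motif of the ETS family was also found in the windows of NDUFS1, NDUFV1, NDUFA10, NDUFB7 and NDUFB9, that of NRF1 in NDUFA5 and that of YY1 in NDUFA6 and NDUFB8. The windows of the other 18 members held none of the 3, which says only that these letters are absent from them. Among them were NDUFA4, NDUFA2 and NDUFB5, which are described in more detail below.

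Depth was ample for these genes. Counts summed over all genes ranged from 38914271 to 91318334 per pig, with 5 deep libraries (High MB pigs 4 and 6, Low MB pigs 1, 5 and 6) and 7 standard ones, so both groups had pigs of both classes. The lowest count of any complex I gene in any pig was 341, for NDUFA4L2, and the highest was 174880, for NDUFB10. All 30 genes passed the filter on low counts, which left 13373 genes to test. The members took between 0.353% of the counts, in Low MB pig 6, and 0.532%, in High MB pig 5. Libraries that stand apart were High MB pig 2, whose scaling factor of 1.21 was the highest of the 12 and whose macrophage marker genes lay a median of 1.80 on the log2 scale above the mean of the pigs, and Low MB pig 1, with the lowest value for 12.03% and the highest for 13.1% of all genes and with the lowest medians of the 12 pigs for the fibroblast (-1.17), macrophage (-0.83) and endothelial (-0.76) markers. Skeletal muscle, though not longissimus in particular, was recognisable by the fast-fibre and slow-fibre genes analysed. The 6 fast-fibre genes tested summed to between 20934 and 49205 CPM per pig. The fast myosin heavy chains MYH1, MYH2 and MYH4 and MYLPF were not analysed here. CPM are a gene's counts per 1000000 reads of the library, after scaling of the libraries by the TMM method (trimmed mean of M-values), which takes out differences in depth and composition.

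Levels among the members were compared per length, as CPM per kilobase of exon. The median member stood at 101 CPM per kilobase, and 22 of the 30 lay within 2-fold of it, so most subunits of this complex were transcribed to similar levels. NDUFB10, an accessory subunit of the far end of the membrane arm, stood well above them at 1742 ± 294 CPM per kilobase (SD, n = 12). It was the highest member in 12 of the 12 pigs and 5.54-fold above the next gene. Its annotated span (chr3:40003109-40005650, minus strand) overlaps RPL3L, a muscle gene on the plus strand that encodes a ribosomal protein, by 744 bases and the ribosomal protein gene RPS2 by 2 bases. The sources used here give no strand setting for the counting, so reads of NDUFB10 and of these neighbours cannot be told apart with certainty and its level is uncertain. RPL3L itself was at 292.8 ± 40.5 CPM in the High MB and 289 ± 44.9 CPM in the Low MB group (SD, n = 6 each). The spans of 7 other members (NDUFA2, NDUFA8, NDUFB1, NDUFB4, NDUFB11, NDUFS3 and NDUFS4) also overlap a neighbouring gene.

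Below NDUFB10 came NDUFA4 (chr9:80637005-80644067) with 314 ± 55.1 and NDUFB9 with 257 ± 56.0 CPM per kilobase (SD, n = 12), and NDUFA4 exceeded NDUFB9 in each pig. NDUFB9 is an accessory subunit of the distal membrane arm. At the other end of the order, NDUFS4 of the matrix arm was at 44.7 ± 5.77 and NDUFA5, also of the matrix arm, at 37.2 ± 6.69 CPM per kilobase (SD, n = 12). NDUFA4L2, known as a gene induced by low oxygen and not as a regular subunit, was far lower at 1.80 ± 0.407 CPM per kilobase (SD, n = 12) and was the lowest member in each of the 12 pigs. Its annotated exons sum to 6639 bases, more than for any other member, which lowers its value on this scale. Of the 29 pairs of neighbours in the order of levels, 5 kept their order in every pig: NDUFB10 over NDUFA4, NDUFA4 over NDUFB9, NDUFB2 over NDUFAB1, NDUFA10 over NDUFA6, and NDUFA5 over NDUFA4L2. The other 24 pairs changed places in at least 1 pig, among them NDUFB9 over NDUFB2, NDUFA6 over NDUFA2 and NDUFS4 over NDUFA5, whose order held in 11 of the 12 pigs.

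**Figure D1:**
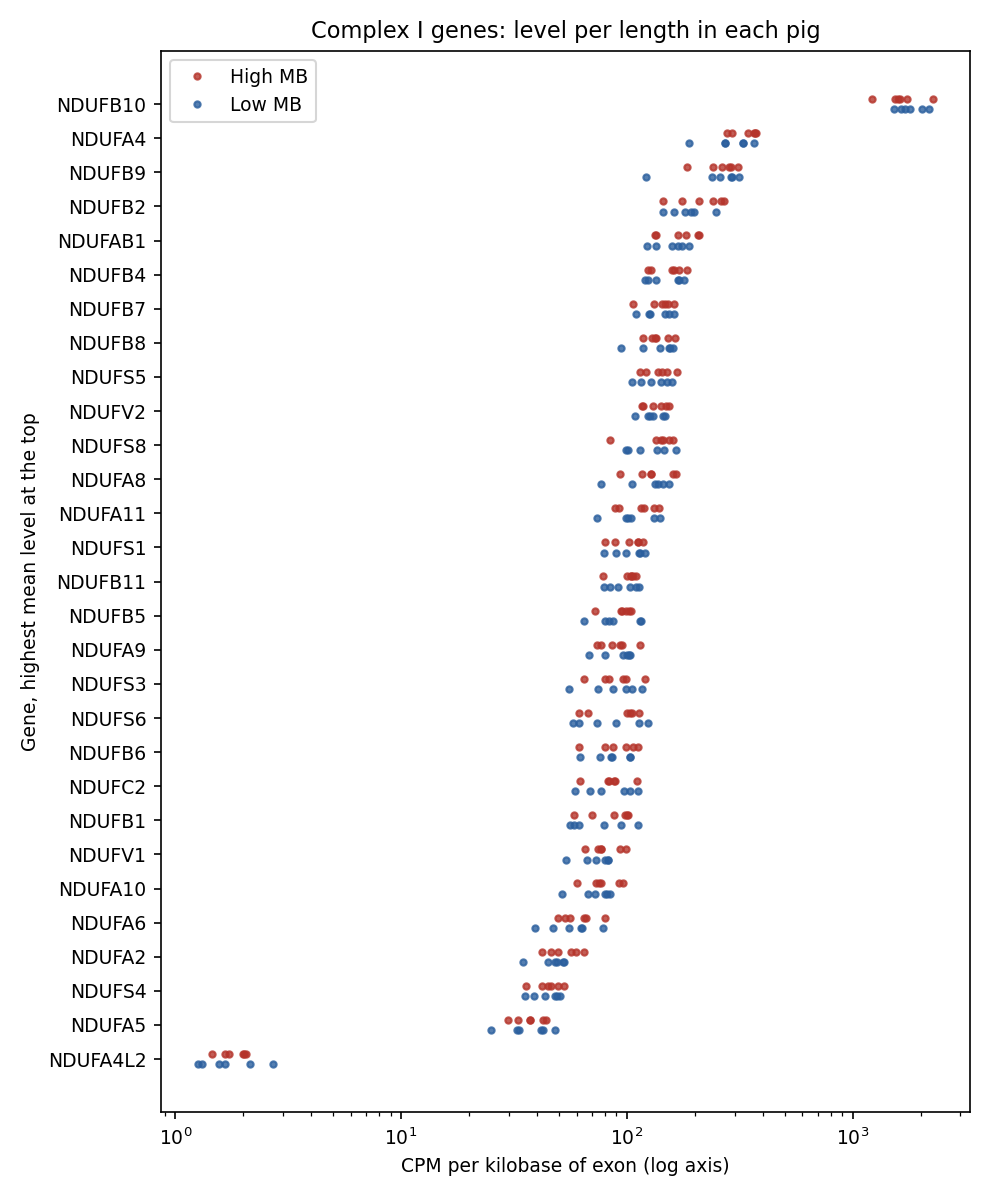
Level of 29 complex I genes in each pig, in CPM per kilobase of exon on a log axis, with genes ordered by their mean over the 12 pigs and points for High MB pigs in red and Low MB pigs in blue. NDUFB10 lies above 1224 CPM per kilobase in all pigs, NDUFA4L2 lies below 2.71, and the red and blue points of every gene overlap.

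Differences between the groups are given as log2 fold changes from edgeR's quasi-likelihood test, where a positive value means higher expression in the High MB group. A gene was called when its Benjamini-Hochberg adjusted p-value over all genes tested was under 0.10 and its log2 fold change was beyond 0.58 in either direction. No member was called by edgeR, and 0% of all genes were. At an unadjusted p-value under 0.05, 0 members were found, against 5.33% of all genes that were higher and 3.13% that were lower in High MB pigs. DESeq2 with its default settings called 29 genes, of which 0 were members, and its smallest p-value for a member was 0.192. The lowest edgeR p-value of a member was 0.185, with an adjusted p-value of 0.71. For 30 of the 30 members the 95% interval of the log2 fold change lay within -0.58 and 0.58, which held for 51.8% of all genes, so a change as large as the limit lies outside the interval of each of them. The groups did not overlap for 0 of the 30 members and for 0.426% of all genes.

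Most of the small differences had the same sign. The log2 fold change was above 0 for 26 of the 30 members, against 46.9% of all genes, and its median was 0.06, against -0.02 for all genes. It ran from -0.12 for NDUFB10 to 0.20 for NDUFA4. By place in the complex the medians were nearly equal, with 0.07 for the core subunits, 0.05 for the 6 of the matrix arm, 0.07 for the 5 of the proximal membrane arm and 0.06 for the 10 of the distal membrane arm. The members are not independent of each other, and their common sign rested on few pigs. Without Low MB pig 6 the median was 0.00 and 16 of the 30 values were above 0. Without High MB pig 2 the median was 0.15, 29 values were above 0, and NDUFB2 had an edgeR p-value of 0.0432 with an adjusted p-value of 0.477. The median was 0.11 among the deep libraries alone and 0.05 among the standard ones.

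**Figure D2:**
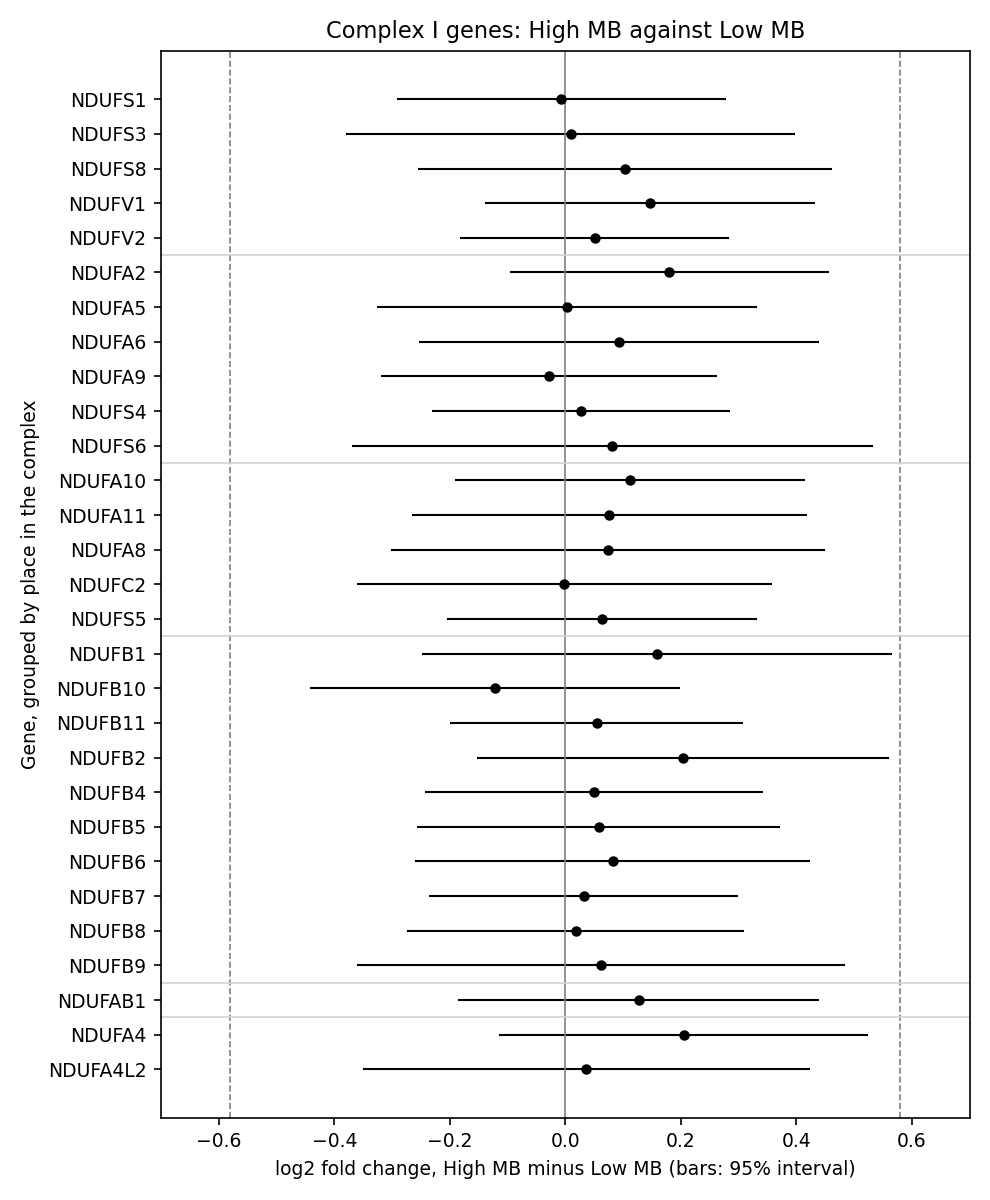
Log2 fold change of High MB over Low MB pigs for 29 complex I genes, each shown with its 95% interval from edgeR, grouped by place in the complex, with core subunits at the top. Dashed lines mark the limit of 0.58 in both directions: each interval includes 0 and none reaches a dashed line.

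Among the core subunits, NDUFV1 binds the flavin that accepts electrons from NADH. Its expression ranged from 103 to 158 CPM with a median of 122 in the High MB pigs and from 85.6 to 131 CPM with a median of 122 in the Low MB pigs. The ranges overlapped in part, with 2 High MB pigs above every Low MB pig and Low MB pig 6 below every High MB pig, and the log2 fold change was 0.15 ± 0.13 (SE; edgeR adjusted p = 0.777, exact permutation p = 0.301). NDUFV2, its partner in the NADH-binding module, carries an iron-sulphur cluster and ranged from 101 to 133 CPM in the High MB and from 94.1 to 128 CPM in the Low MB pigs, with medians of 118 and 111. It was the steadiest of the 30 genes, with a coefficient of variation of 10.9% over the 12 pigs and a log2 fold change of 0.05 ± 0.11 (SE). With 1 pig left out this fold change ranged from 0.004 (without Low MB pig 6) to 0.11 (without High MB pig 2).

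NDUFS1, the largest subunit, carries further iron-sulphur clusters of the electron path. It ranged from 216 to 317 CPM (median 287) in the High MB and from 214 to 322 CPM (median 286) in the Low MB pigs, which is nearly the same range in both groups. Its log2 fold change of -0.01 ± 0.13 (SE) changed sign with the normalization. NDUFS3 lies in the part of the matrix arm that leads to the membrane and ranged from 63.2 to 118 CPM (median 87.9) in the High MB and from 54.5 to 115 CPM (median 91.3) in the Low MB pigs. It was spread about as widely within each group, and its log2 fold change was 0.01 ± 0.18 (SE). NDUFS8 carries the iron-sulphur clusters near the ubiquinone site and ranged from 122 to 231 CPM (median 208) in the High MB and from 144 to 240 CPM (median 181) in the Low MB pigs. Its lowest value was that of High MB pig 2, well under the next High MB pig at 196 CPM, and the log2 fold change was 0.10 ± 0.17 (SE). With 1 pig left out this fold change ranged from 0.04 (without Low MB pig 6) to 0.23 (without High MB pig 2).

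Of the accessory subunits, NDUFA2 of the matrix arm had the lowest p-value of all 30 members. It ranged from 28.9 to 44.3 CPM with a median of 36.6 in the High MB pigs and from 23.9 to 36.4 CPM with a median of 33.4 in the Low MB pigs. Above every Low MB pig lay 3 of the High MB pigs, and 1 Low MB pig lay below every High MB pig, while the others were mixed. The log2 fold change was 0.18 ± 0.13 (SE; edgeR adjusted p = 0.71), and the exact permutation test, which cannot go under 0.00216 with 6 pigs against 6, gave a two-sided p = 0.210.

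NDUFB2, a small subunit of the distal membrane arm, ranged from 62.8 to 117 CPM (median 97.5) in the High MB and from 62.8 to 108 CPM (median 81.3) in the Low MB pigs. Both groups had the same lower end, and the log2 fold change was 0.20 ± 0.17 (SE; edgeR adjusted p = 0.7504, exact permutation p = 0.312). NDUFB1, of the same arm, ranged from 28.2 to 49.0 CPM (median 45.0) in the High MB and from 27.2 to 54.2 CPM (median 34.1) in the Low MB pigs, where the highest pig of all was a Low MB pig. Its log2 fold change was 0.16 ± 0.19 (SE; edgeR adjusted p = 0.846, exact permutation p = 0.411). NDUFAB1, the mitochondrial acyl carrier protein that also serves fatty acid synthesis, ranged from 94.6 to 148 CPM (median 125) in the High MB and from 87.7 to 135 CPM (median 116) in the Low MB pigs. High and Low MB pigs were again interleaved, with a log2 fold change of 0.13 ± 0.15 (SE; edgeR adjusted p = 0.8396, exact permutation p = 0.433).

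NDUFB10 was the member with the lowest log2 fold change, -0.12 ± 0.15 (SE; edgeR adjusted p = 0.8504, exact permutation p = 0.374). It ranged from 1014 to 1881 CPM (median 1334) in the High MB and from 1269 to 1799 CPM (median 1455) in the Low MB pigs, so that the High MB group held both the lowest and the highest pig. NDUFA5 and NDUFS4, the lowest regular subunits per length, had log2 fold changes of 0.00 ± 0.15 and 0.03 ± 0.12 (SE). NDUFA5 ranged from 81.5 to 120 CPM (median 102) in the High MB and from 68.9 to 132 CPM (median 103) in the Low MB pigs, and NDUFS4 from 65.1 to 96.0 CPM (median 83.0) and from 64.6 to 92.9 CPM (median 83.7). Their medians were thus almost the same in both groups. The other accessory subunits of the matrix arm, NDUFA6, NDUFA9 and NDUFS6, had log2 fold changes between -0.03 and 0.09, and those of the proximal membrane arm between 0.00 for NDUFC2 and 0.11 for NDUFA10.

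NDUFA4 had the largest positive log2 fold change by a narrow margin, at 0.205 against 0.204 for NDUFB2. With 1 pig left out it reached at most 0.29, while that of NDUFB2 reached 0.32 (without High MB pig 2). Expression of NDUFA4 ranged from 277 to 370.0 CPM with a median of 352 in the High MB pigs and from 188 to 362 CPM with a median of 298 in the Low MB pigs. Above every Low MB pig lay 2 of the High MB pigs, while Low MB pigs 2, 4 and 6 lay below every High MB pig. The log2 fold change was 0.20 ± 0.15 (SE; edgeR adjusted p = 0.715, exact permutation p = 0.171). Low MB pig 6 bears on several of these values: without it the log2 fold change was 0.11 for both NDUFA4 and NDUFA2, 0.07 for NDUFV1, 0.08 for NDUFB1 and 0.06 for NDUFAB1. That of NDUFB2 was 0.13 without High MB pig 5, and that of NDUFB10 was -0.03 without High MB pig 2. NDUFA4L2 ranged from 9.65 to 13.6 CPM (median 12.4) in the High MB and from 8.36 to 18.0 CPM (median 10.7) in the Low MB pigs. The Low MB pigs were spread far more widely for this gene and enclosed all High MB pigs, and the log2 fold change was 0.04 ± 0.18 (SE).

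The clearest structure among the members was one between pigs and not between groups. For each pig, the median over the 30 genes of its log2 CPM minus the mean of the 12 pigs was taken as its deviation. It was -0.31 in High MB pig 2 and between -0.04 and 0.30 in the other High MB pigs. In the Low MB group it was -0.50 in pig 6, -0.18 in pig 4 and between -0.03 and 0.20 in the others. Both groups thus contained a pig in which nearly the whole complex was low. Low MB pig 6 had the lowest value of the 12 pigs for 22 of the 30 members, against 6.64% of all genes, and High MB pig 2 for 6 of them, which is near its share of all genes (17.0%). Each of these pigs was above the mean of the 12 for 1 of the 30 genes, against 54.5% of all genes in Low MB pig 6 and 52.9% in High MB pig 2. High MB pig 5 was above the mean for 30 of 30, against 50.7% of all genes, and had the highest value for 13, against 6.86% of all genes. Low MB pig 3 had the highest value for 5 (5.96% of all genes) and Low MB pig 1 for 4, which is near its share of all genes (13.1%).

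**Figure D3:**
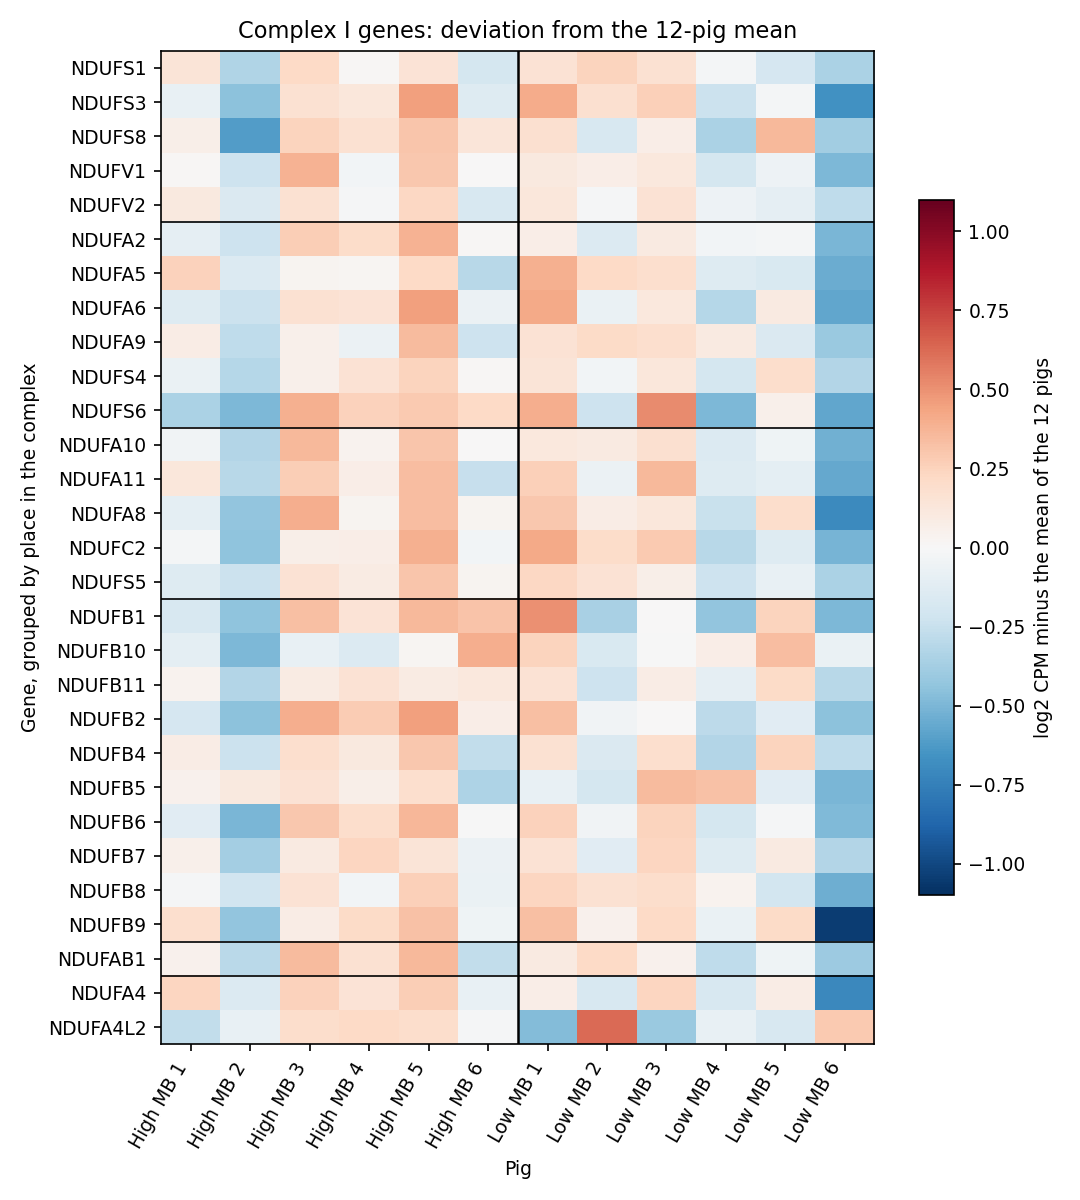
Deviation of 29 complex I genes in each pig from their means over the 12 pigs, in log2 CPM, with genes in rows grouped by place in the complex and pigs in columns, High MB on the left. Blue columns run through nearly all rows for High MB pig 2 and Low MB pig 6, and a red column does so for High MB pig 5. The row of NDUFA4L2 departs from this pattern, and that of NDUFB10 is close to its mean in Low MB pig 6 and High MB pig 5.

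The pattern was shared by all places in the complex. In Low MB pig 6 the median deviation was -0.44 for the core subunits, -0.52 for the matrix arm, -0.53 for the proximal and -0.47 for the distal membrane arm. The deepest single deviation of this pig was that of NDUFB9, at -1.04, with 82.3 CPM against 162 CPM in the next Low MB pig. In High MB pig 2 the corresponding medians were -0.28, -0.26, -0.32 and -0.40. NDUFA4L2 did not follow, since it was above its mean in Low MB pig 6 and lowest in Low MB pig 1. NDUFB10, whose level is uncertain, followed only in part. It deviated by -0.49 in High MB pig 2, but by -0.07 in Low MB pig 6 and 0.02 in High MB pig 5, and was highest in High MB pig 6. The median coefficient of variation of the members over the pigs was 17.6%, against 22.9% for all genes, with no account taken of expression level. It was near that of the members for the nuclear subunits of complexes II to V (19.5%) and the assembly factors (19.4%). For the complex I subunits encoded in the mitochondrial genome it was 31.7%.

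Subunits of the other respiratory complexes were low in the same pigs, whereas those encoded in the mitochondrial genome were low in High MB pig 2 and not in Low MB pig 6. Of the 29 nuclear subunits of complexes II to V analysed, Low MB pig 6 had the lowest value for 27, and its median deviation over them was -0.60. The 7 complex I subunits encoded in the mitochondrial genome lay a median of 0.20 above the mean in the same pig. In High MB pig 2 the median deviation was -0.24 for complexes II to V and -0.40 for the mitochondrially encoded subunits, beside -0.31 for nuclear complex I. The mitochondrially encoded subunits were lowest in other pigs, at -0.57 in High MB pig 6 and -0.49 in Low MB pig 4, where nuclear complex I was at -0.04 and -0.18. The summed CPM of the 7 mitochondrially encoded genes was 9.36 times that of the nuclear members without NDUFB10 in Low MB pig 6, the highest ratio of the 12, whereas it was 4.04 in High MB pig 6, the lowest. The ratio was 5.65 ± 1.04 in the High MB and 6.24 ± 1.95 in the Low MB group (SD, n = 6 each), which differ by less than their SD. Among these genes the log2 fold change between the groups lay between -0.22 for ND6 and 0.14 for ND3, and 0 of 7 had an edgeR p-value under 0.05, with ND1 at 0.01, ND2 at -0.03, ND4 at 0.02, ND4L at 0.04 and ND5 at -0.06. Their median difference was -0.55 among deep libraries and 0.45 among standard libraries, so its sign was opposite in these depth classes, whereas the median of the nuclear members was above 0 in both. With 1 pig left out, the log2 fold change of ND3 ranged from -0.075 (without High MB pig 5) to 0.264 (without High MB pig 6). That of ND6 ranged from -0.329 (without High MB pig 3) to -0.082 (without Low MB pig 3).

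**Figure D4:**
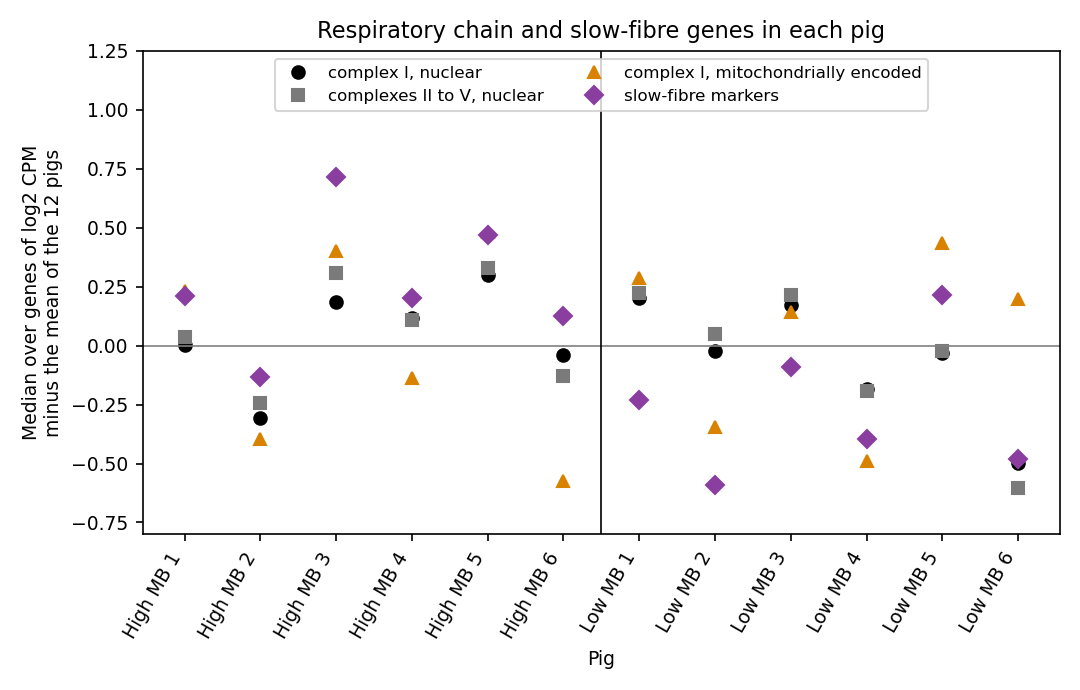
Median deviation of each pig from the mean of the 12 pigs, in log2 CPM, over the nuclear complex I genes, the nuclear genes of complexes II to V, the mitochondrially encoded complex I genes and the slow-fibre markers, with High MB pigs left of the line. Complexes I and II to V lie close together in every pig, while the mitochondrially encoded genes lie at 0.20 in Low MB pig 6, where the nuclear genes lie at -0.50 and -0.60.

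Genes that act on complex I from outside were compared in the same test. Of 14 assembly factors tested, which join the subunits into the complex, 0 had an edgeR p-value under 0.05 in either direction, and their median log2 fold change was -0.03. Of 14 regulators of mitochondrial gene expression, among them PPARGC1A, NRF1, GABPA, ESRRA and TFAM, 0 passed that limit and the median was -0.16. Of the 29 nuclear subunits of complexes II to V, 2 were higher and 0 lower, with a median of 0.13: these were COX4I1 of cytochrome c oxidase, with a log2 fold change of 0.28 ± 0.13 (SE), and ATP5ME of ATP synthase, with 0.39 ± 0.18 (SE). Among all genes, 8.46% had a p-value under this limit in either direction. With 1 pig left out, the count for complexes II to V ran from 0 (without High MB pig 3, among others) to 5 (without High MB pig 2), that for the regulators from 0 to 2 (without High MB pig 1) and that for the assembly factors from 0 to 1 (without Low MB pig 5). The share of all genes under this limit was not computed with a pig left out, so these counts cannot be read against it. No gene of these lists was called.

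Genes that mark the cells of the muscle had median log2 fold changes further from 0 than complex I. Of 6 slow-fibre markers tested, 5 (TNNC1, TNNI1, TNNT1, MYL3 and MYL2) were higher in the High MB group at an edgeR p-value under 0.05 and 0 were lower, with a median log2 fold change of 0.54. Their summed level was between 6433 and 12555 CPM in High MB and between 4842 and 8404 CPM in the Low MB pigs. MYH7, TPM3 and MYOZ2 were not analysed here. Of the 6 fast-fibre markers, 1 (ATP2A1) was lower, and the summed level was between 20934 and 45566 CPM in the High MB and between 36146 and 49205 CPM in the Low MB pigs. The lower end in the High MB group was that of pig 2 alone, and without this pig the log2 fold change of ATP2A1 was -0.28 instead of -0.44. The adipocyte markers gave 2 higher of 8 (FABP4 and CIDEC), with a median log2 fold change of 0.74. Values were above 0 for 6 of the 8 and below 0 for LIPE (-0.27) and GPD1 (-0.09). Their sums were between 867 and 1691 CPM and between 804 and 1896 CPM in the High and Low MB pigs. GPD1, with means of 800 and 850 CPM, made the largest part of these sums. The macrophage markers gave 4 higher of 7 (CSF1R, AIF1, MRC1 and CD163), with sums between 145 and 234 CPM and between 114 and 184 CPM. ITGAM, with means of 136 and 114 CPM, made the largest part of these sums. Without High MB pig 2 the log2 fold change was 0.49 for CSF1R, 0.69 for AIF1, 0.59 for MRC1 and 0.55 for CD163. With all pigs these values were 0.60, 1.11, 0.98 and 1.09. The fibroblast markers gave 4 higher of 7 (FBN1, COL1A2, PDGFRA and COL1A1), with sums between 670.3 and 1181 CPM and between 343 and 873 CPM. The endothelial markers gave 0 of 5, with sums between 122 and 167 CPM and between 76.2 and 183 CPM. None of these genes was called, none was at 0 in any pig, and the part of these cells in the values of complex I was not tested. In the pigs with low complex I the fibre markers were not alike: the slow-fibre median deviation was -0.48 in Low MB pig 6 and -0.13 in High MB pig 2, and the fast-fibre one was 0.07 and -0.75.

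Myoglobin in the muscle was measured in every pig, so the relation of each gene to it could also be examined inside the groups, apart from the contrast between them. The slope of log2 expression on myoglobin, with the group in the model, was positive for 28 of the 30 members, against 49.9% of all genes, with a median of 0.09 per 0.1 mg/g of myoglobin. Positive slopes were also found for 29 of the 29 subunits of complexes II to V, with a median of 0.12 and 4 under a p-value of 0.05, and for 12 of the 14 assembly factors. An edgeR p-value under 0.05 was reached by 4 members, against 3.85% of all genes, and neither any member nor any other gene (0% of all genes) passed an adjusted p-value of 0.10. The genes are not independent of each other, and these counts rest on the same 12 pigs. Without Low MB pig 6 the number of members with a positive slope was 24. With the individual number as a block it was lower still, as given at the end. The Low MB pigs span a wider range of myoglobin than the High MB pigs.

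NDUFB5 (chr13:117656411-117671515), an accessory subunit of the distal membrane arm, had the steepest positive slope. It was expressed at 58.3 to 83.7 CPM with a median of 78.2 in the High MB pigs and at 51.9 to 93.4 CPM with a median of 68.6 in the Low MB pigs. The Low MB pigs with the most myoglobin, numbers 3 and 4, had the highest values of that group, at 93.4 and 92.3 CPM, and High MB pig 6, with the least myoglobin of its group, had the lowest of that group. The slope was 0.20 ± 0.05 per 0.1 mg/g (SE), with an unadjusted edgeR p-value of 0.000857 and an adjusted p-value of 0.9997, and DESeq2 gave 0.21 with an adjusted p-value of 0.0757. Between the groups the same gene differed by a log2 fold change of only 0.06 ± 0.15 (SE).

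NDUFA11, which sits where the membrane arm touches the other complexes, had a slope of 0.16 ± 0.07 per 0.1 mg/g (SE) with an unadjusted edgeR p-value of 0.0287, and NDUFA4 one of 0.15 ± 0.06 (SE) with 0.0421. NDUFA11 ranged from 50.1 to 78.3 CPM (median 66.3) in the High MB and from 41.7 to 79.3 CPM (median 58.1) in the Low MB pigs. NDUFA4L2 went the other way with -0.18 ± 0.07 (SE) and an unadjusted edgeR p-value of 0.0322. The adjusted p-value was 0.9997 for each of the 3. Without Low MB pig 6 the slope of NDUFA4 was 0.08, and without Low MB pig 2 that of NDUFA4L2 was -0.09. The number of members under 0.05 moved with the pigs included, from 1 without Low MB pig 3 (2.25% of all genes) and 1 without Low MB pig 6 (2.84%) to 2 without High MB pig 6 (2.99%), 8 without Low MB pig 4 (3.46%) and 10 without Low MB pig 2 (6.65%).

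**Figure D5:**
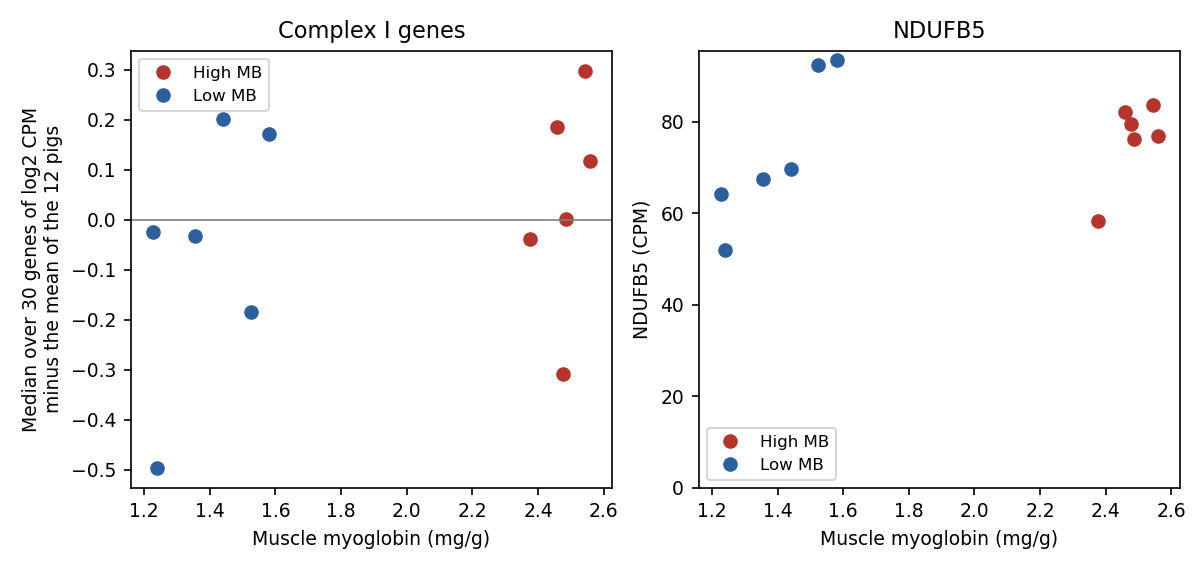
Muscle myoglobin content in mg/g against the median deviation of the 30 complex I genes (left, log2 CPM) and against the expression of NDUFB5 (right, CPM), with 1 point per pig, High MB in red and Low MB in blue. NDUFB5 lies at 93.4 and 92.3 CPM in the Low MB pigs with 1.58 and 1.52 mg/g of myoglobin, and at 58.3 CPM in the High MB pig with 2.38 mg/g.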

How the data were processed

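RNA-seq of longissimus dorsi was analysed from 12 libraries, 1 per pig, grouped by the labels. The authors trimmed paired reads with Trim Galore, used HISAT2 for alignment to Sscrofa11.1, and deposited raw htseq-count counts per gene, without normalization. The annotation release and the strand setting are not given in the sources used here. The counts per transcript were not used. Reads without a gene, 50.9% to 52.0% of the reads with 1 gene, none or several, stayed out of library sizes.

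Counts were tested with edgeR 4.0.16 in R 4.3.3 (TMM, filterByExpr with the group, glmQLFit and glmQLFTest over the 12 pigs, no covariate), with Benjamini-Hochberg adjustment over 13373 genes. The standard error was derived from the test statistic. Log2 CPM used a prior count of 2. The scripts were tested on simulated counts. DESeq2 1.42.0 was an alternative, since the study used it. Gene spans, exon lengths and gene starts came from RefSeq, matched by symbol. Motif positions were found by exact search.

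The members, lists and tests were chosen with earlier results of these data known. Genes described were the 6 members with the lowest p-value, the 3 highest and 3 lowest per length, the core subunits, NDUFA4 and NDUFA4L2, those with a myoglobin slope under 0.05, those with a pig that stands apart, the mitochondrially encoded subunits and genes of the other lists under 0.05. RPL3L, NDUFA10, NDUFC2 and the members named only by a motif, by an overlap, by a neighbour in the order of levels or in the list of small log2 fold changes were named outside this rule. Values of 1 member are not reported here singly, in the text or the plots of single genes, and enter the counts and medians only. Alternatives were other size factors (RLE, upper quartile), robust estimation, other filters on low counts (none, or at least 10 counts in every pig), a depth-class covariate, a block for the individual number, genes left out before scaling and each pig left out in turn. No interval or floor was needed for counts of 0, since every member had at least 341 counts.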

Additional observations from a re-analysis of the deposited data

Results flagged for a closer look

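Within a group of 6 pigs, the highest or lowest value of 4 members stood apart from the others by more than Dixon's 95% limit, in 60 groups of values examined, of which chance alone flags about 1 in 20. NDUFB9 was at 82.3 CPM in Low MB pig 6, with the nearest Low MB pig at 162 CPM. NDUFB5 was at 58.3 CPM in High MB pig 6, with the nearest High MB pig at 76.2 CPM. NDUFB11, an accessory subunit of the distal membrane arm, was at 91.2 CPM in High MB pig 2, with the nearest at 117 CPM, and NDUFS8 was at 122 CPM in the same pig, with the nearest at 196 CPM. All 4 values were the lowest of their group, and 3 of them belonged to the pigs in which most complex I genes were low.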

How the results depend on the processing

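Over 42 results, 824 values were recomputed under other settings, of which 758 kept their direction and their side of the limit or moved by less than the spread, and 35 changed sign, all of them log2 fold changes close to 0. No member was called for the group contrast under any setting run. With 1 pig left out, the median log2 fold change of the members ranged from 0.00 (without Low MB pig 6) to 0.15 (without High MB pig 2). In the same fits the number of members higher at p under 0.05 ran from 0 to 1, for which no share of all genes was computed. The number with a myoglobin slope under 0.05 ran from 1 (without Low MB pig 3, where 2.25% of all genes passed) to 10 (without Low MB pig 2, where 6.65% did). Leaving out High MB 2 and Low MB 6 together gave 1 such slope and leaving out High MB 2 and Low MB 4 gave 10, both chosen after seeing the data. The share of all genes was not computed for either of these settings, so the counts cannot be read against it. The log2 fold change of NDUFA5 was -0.0012 with no filter on low counts and -0.0308 with the depth class as a covariate, and that of NDUFS3 was -0.0042 with that covariate. NDUFS1 was at 0.0015 with RLE and 0.0525 with upper quartile size factors, 0.00053 with DESeq2, 0.0173 with at least 10 counts in every pig, 0.0011 without the genes of the mitochondrial genome and 0.0108 without the 10 highest genes. With 1 pig left out, the ranges were -0.0137 to 0.178 for NDUFA11, -0.0453 to 0.208 for NDUFA4L2, -0.0884 to 0.0891 for NDUFA5, -0.0243 to 0.152 for NDUFB5, -0.0806 to 0.168 for NDUFB9, -0.0706 to 0.0751 for NDUFS1, -0.0971 to 0.115 for NDUFS3 and -0.0302 to 0.108 for NDUFS4. The slope of NDUFB5 passed the adjusted limit with DESeq2 (0.21), which called 20 genes for that slope, and not with edgeR. The cause of these changes was not tested.

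The individual numbers did not pair the pigs: pigs of the same number had correlations of their deviations between -0.21 and 0.14, and no pig was most like the pig of its own number. With the number as a block, 0 members and 0 of all genes were called between the groups. In the same setting 0 members had a myoglobin slope under 0.05, against 4.94% of all genes. Of the 30 slopes 12 were positive, and the share of all genes with a positive slope was not computed for this setting.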
